A study of Mus musculus with 6 samples.

Results

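The matrix metalloproteinases (MMPs), the ADAMTS proteases with their ADAMTS-like relatives, and the tissue inhibitors of metalloproteinases (TIMPs) were examined in primary smooth muscle cells isolated from mouse oviducts. All protein-coding genes were taken whose symbol starts with Mmp and a number, with Adamts, or with Timp and a number, which gave 50 of the 54232 genes in the deposited count table. Of these, 40 were measured, meaning 10 or more counts in at least 3 libraries. The rule used symbols alone and, for the measured genes, that minimum. Mmp28, with 8, 10 and 8 counts in WT and 15, 11 and 7 in Pbrm1 cKO, lay just inside it, and Adamts20, with 9, 1 and 8 counts in WT and 8, 14 and 8 in Pbrm1 cKO, just outside.

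RNA-seq had been performed to find genes that differ when Pbrm1, which encodes a subunit of the SWI/SNF chromatin remodeler PBAF, is conditionally deleted. There were 3 libraries from WT mice and 3 from Pbrm1 cKO mice, all aged 8 to 12 weeks, mated, and sampled on day 2 of pregnancy. The study describes Pbrm1 fl/fl mice crossed to a line in which cre is expressed from the Pgr locus, so deletion is limited to cells that make or made the progesterone receptor; the labels call the controls WT, a legend of the study names floxed mice, and neither label nor header says whether controls carried cre. Oviducts of both groups were minced, digested with trypsin, collagenase and dispase, filtered and kept in dishes with serum for about 6 hours before RNA was taken. A legend of the study calls the 3 replicates biological, and neither it nor the labels say that each library came from separate animals, so p-values measure the spread between these libraries.

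MMPs are zinc proteases that are made as inactive precursors and cut collagens, elastin, other matrix proteins and many signaling proteins. ADAMTS proteases are secreted and act on narrower sets of substrates, among them the large proteoglycans versican and aggrecan and the propeptides of fibrillar collagens, while the ADAMTS-like proteins keep the binding domains and lack the catalytic one. TIMPs bind the active site of MMPs and block it. In the female reproductive tract these genes are known for the tissue remodeling that accompanies ovulation, the cycle and pregnancy.

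Library totals ran from 15390818 to 18947947 counts, at which 3 counts, taken as the floor, equal 0.159 to 0.193 CPM (read counts relative to the library size after TMM scaling). CPM compare 1 gene between libraries, and RPKM (CPM per kilobase of exon) compare genes. Values are given in the order of replicates 1, 2 and 3, and each SE is that of the contrast of 3 against 3 libraries. Pbrm1 was reduced in cKO to 26.0% of its mean in WT libraries (log2 fold change -1.94 with SE 0.064, edgeR adjusted p = 9.13e-11). The first principal component separated the groups and held 73.5% of the variance, and cKO replicate 2 stood apart from the other cKO libraries on the second, which held 8.44%. The cells expressed all 8 smooth muscle markers examined, with a summed level of 3339 to 3426 CPM in WT and 4134 to 4638 CPM in cKO, and they also held transcripts of macrophages, epithelium, fibroblasts, endothelium and mesothelium.

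In cKO cells the family shifted in both directions, with more increases than decreases. Of 39 genes tested, 26 (66.7%) differed at an edgeR adjusted p-value under 0.05, where 43.7% of all 15376 tested genes did. In cKO, 19 members were higher and 7 lower, against 21.9% and 21.8% of all tested genes. The median log2 fold change was 0.29 over the 39 members and 0.0016 over all tested genes, and among called genes the median size of the change, whatever its sign, was 0.74 in the members and 0.40 over the whole table. A change over 2-fold was found in 5 called members, of which Adamts15, Mmp3, Adamtsl1 and Adamtsl4 were higher and Adamts14 was lower, and in 6.49% of all tested genes (3.62% higher, 2.87% lower). The libraries of the groups did not overlap in 25 of the 39 tested members, 24 of them called, and in 53.5% of all tested genes (26.6% with cKO higher, 26.9% with cKO lower).

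**Figure D1:**
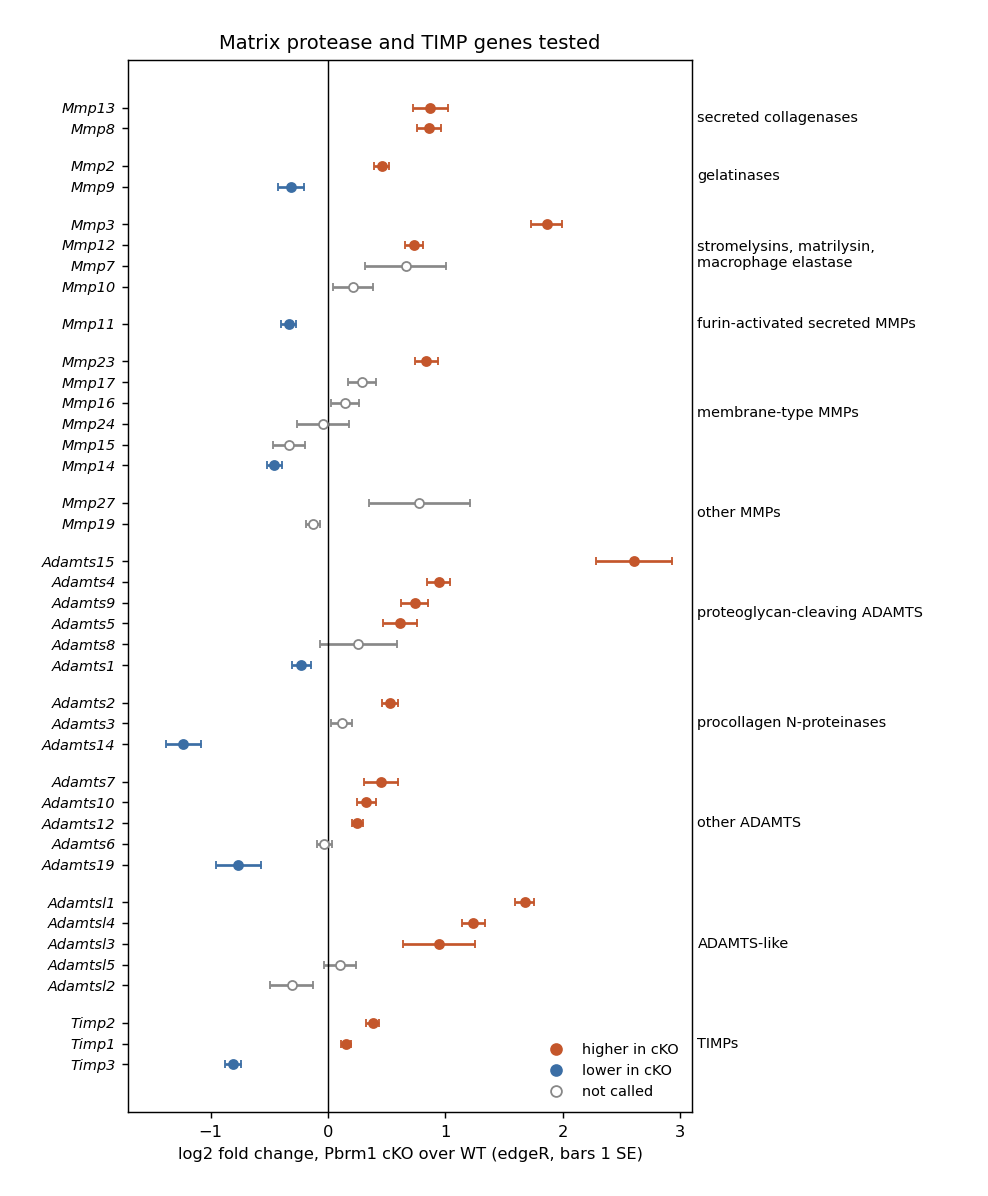
Log2 fold changes of the 39 tested members between Pbrm1 cKO and WT (horizontal axis; points are edgeR estimates, bars 1 SE), grouped by role. Filled points mark adjusted p-values under 0.05. The 19 red points lie to the right of 0 and the 7 blue points to the left, with Adamts15 (2.61) and Adamts14 (-1.23) at the ends.

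By family, 9 of 17 tested MMPs were called (6 higher, 3 lower), 11 of 14 ADAMTS proteases (8 higher, 3 lower), 3 of 5 ADAMTS-like genes (all higher) and 3 of 3 TIMPs (2 higher, 1 lower). Of all tested genes, 43.7% were called, with 21.9% higher in cKO and 21.8% lower. The called share of MMPs, 52.9%, was not far from that. The families differed widely in level. Timp1 alone held 69.1% of the summed RPKM of the members in WT and 70.4% in cKO. Next in WT stood Mmp19 at 91.8 RPKM, Mmp14 at 85.0, Timp3 at 66.8 and Mmp2 at 56.2, and the ranges of neighbours in this order did not overlap until Mmp2 and Adamts1 (54.2 RPKM). In cKO the order after Timp1 was Mmp19, Mmp2, Mmp14, Timp2, Adamts1, Mmp3 and Timp3, and the ranges overlapped between Mmp19 and Mmp2 and between each neighbouring pair from Timp2 to Timp3.

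**Figure D2:**
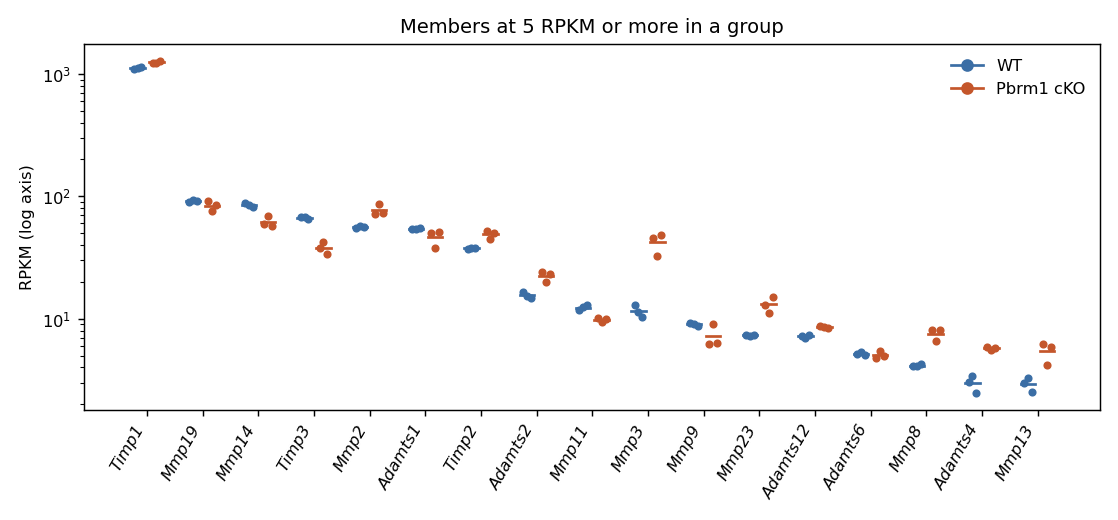
RPKM (log axis) of the 17 members at 5 RPKM or more in the mean of either group. Each point is 1 library and each short line a group mean; blue is WT and red Pbrm1 cKO. Timp1 stands far above the others in all 6 libraries, and Mmp3 shows the widest separation of the groups among these genes.

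Summed over each family, MMP transcripts amounted to 293, 295 and 287 RPKM in WT and 326, 319.9 and 325 RPKM in cKO, and the groups did not overlap. Transcripts of ADAMTS and ADAMTS-like genes amounted to 104 to 106 RPKM in WT and 103 to 121 RPKM in cKO, with cKO replicate 2 below the WT range. TIMP transcripts amounted to 1209.9, 1216 and 1247 RPKM in WT and 1312, 1323 and 1369 RPKM in cKO. These sums depend on the scale. As CPM, in which long transcripts weigh more, TIMPs were lower in cKO (1594 to 1619.6 CPM) than in WT (1674 to 1700.1 CPM), and MMPs overlapped (1181 to 1212 CPM in WT, 1178 to 1219 CPM in cKO). ADAMTS and ADAMTS-like genes were at 694 to 714 CPM in WT and 871, 742 and 864 CPM in cKO, so on this scale replicate 2 also lay above WT.

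The secreted collagenases, which cleave the triple helix of fibrillar collagens, both rose. Mmp8, the collagenase known from neutrophils, was at 9.99, 9.89 and 10.2 CPM across WT and 19.6, 15.8 and 19.6 CPM across cKO (log2 fold change 0.86 with SE 0.10, edgeR adjusted p = 1.49e-05). Mmp13, the main interstitial collagenase of mice, was at 8.04, 8.82 and 6.67 CPM across WT and 16.5, 11.2 and 15.6 CPM across cKO (log2 fold change 0.87 with SE 0.15, edgeR adjusted p = 0.000331). Every cKO library lay above every WT library for both genes, with cKO replicate 2 the lowest of its group. Mmp1b, a further rodent collagenase, had 0 to 5 counts in a library and was not measured.

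Among stromelysins, which cut proteoglycans, laminin and MMP precursors, Mmp3 had the largest increase of any MMP. Mmp3 (chromosome 9, 7445822 to 7455975, plus strand) gave 23.5, 20.3 and 18.7 CPM across WT and 82.2, 58.4 and 87.6 CPM across cKO. All cKO libraries were far above WT and again replicate 2 was the lowest of them; the mean was 3.65-fold that of WT (log2 fold change 1.86 with SE 0.13, edgeR adjusted p = 1.55e-07). Its share of the summed RPKM of MMPs went from 3.96% in WT to 13.05% in cKO. Mmp12, the macrophage elastase, was at 19.0, 20.3 and 22.9 CPM across WT and 34.5, 32.8 and 36.2 CPM across cKO, again without overlap (log2 fold change 0.73 with SE 0.078, edgeR adjusted p = 6.10e-06). Stromelysin 2, Mmp10, averaged 4.89 CPM in WT and 5.68 CPM in cKO and did not pass the test (log2 fold change 0.22 with SE 0.17, edgeR adjusted p = 0.332), nor did matrilysin, Mmp7, at 0.921 and 1.47 CPM (log2 fold change 0.66 with SE 0.34, edgeR adjusted p = 0.138). Mmp27, a little-studied relative, averaged 0.577 and 1.01 CPM (log2 fold change 0.78 with SE 0.43, edgeR adjusted p = 0.165), and of the 13 alternatives at the same threshold in which it had a value it was called in 1, without cKO replicate 2, with an edgeR adjusted p = 0.0467.

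Markers of macrophages, which make Mmp12 and some of the other MMPs, differed as well. Of 10 markers, 9 were higher in cKO and none was lower, where 21.9% of all tested genes were higher and 21.8% lower. The summed level of the 10 markers was 736 to 793 CPM in WT and 1149 to 1210.4 CPM in cKO. Relative to the WT mean this was 1.52, 1.6 and 1.56 in the cKO libraries, against 1.66, 1.58 and 1.74 for Mmp12, 1.95, 1.57 and 1.95 for Mmp8, and 3.95, 2.80 and 4.20 for Mmp3. In cKO replicate 2 the marker sum was the highest of the cKO libraries, and Mmp12, Mmp8 and Mmp3 were each the lowest. Lyz2 made up much of that sum (means of 453 and 621 CPM), and the single markers differed widely. They ran from 0.982 times the WT mean for Cd14, which was not called, and 1.37 for Lyz2 to 2.38 for C1qa, 3.11 for Mrc1 and 3.63 for C1qb. Without Lyz2 the sum was 1.84 times that of WT. All 10 macrophage markers were detected in every library. Their part in the increases was not tested, and in bulk RNA a change in the number of cells of a type and a change in RNA per cell cannot be told apart. Of the 7 neutrophil markers, Ly6g and Retnlg were at 0 in all 6 libraries, and the 3 that could be tested, S100a8, Csf3r and Mpo, had edgeR adjusted p-values of 0.0790, 0.276 and 0.748. The summed level of that list was low, at 2.81 to 4.01 CPM in WT and 2.19 to 2.60 CPM in cKO. None of the 3 tested markers was called, and the part of neutrophils in the level of Mmp8 was not tested.

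**Figure D3:**
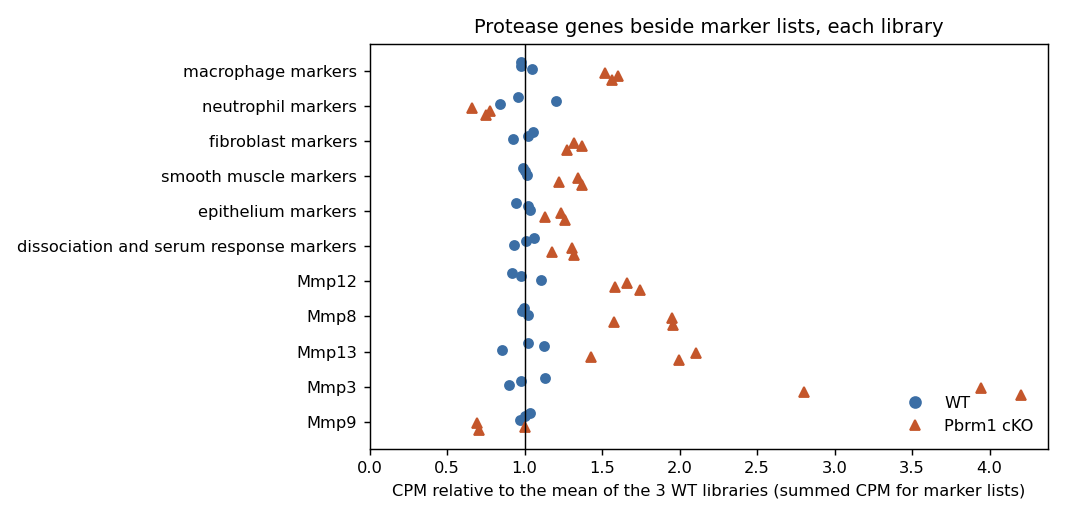
CPM relative to the mean of the 3 WT libraries (horizontal axis) for 6 summed marker lists and 5 MMP genes, 1 point per library; circles are WT and triangles Pbrm1 cKO. The macrophage list and Mmp12 lie at similar ratios in cKO, Mmp3 lies between 2.80 and 4.20, and 1 cKO library of Mmp9 lies at 1.00 among the WT points.

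Mmp13, Mmp12, Mmp3, Mmp8, Mmp10, Mmp27 and Mmp7 are neighbours on chromosome 9. With Mmp1b and Mmp20 they form a cluster of 9 protein-coding MMP genes over 427 kb (GRCm38 chromosome 9, 7272514 to 7699585). Within the cluster, 4 of 7 tested genes were called, and all 4 were higher in cKO, where 43.7% of all tested genes were called and 21.9% were higher. The 3 that were not called had estimates above 0 as well (0.22 to 0.78). The order along the chromosome was Mmp13 (higher), Mmp12 (higher), Mmp1b (not measured), Mmp3 (higher), Mmp10 (not called), Mmp8 (higher), Mmp27 (not called), Mmp20 (0 counts) and Mmp7 (not called), so called and uncalled genes were interleaved.

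The cluster ends 1.20 Mb from Pgr (chromosome 9, 8899833 to 8968611), the gene that carries cre in the cKO mice. Chromosome around an inserted gene is inherited with it, so an effect of the deletion and a difference in the flanking chromosome cannot be told apart for these genes. From the cluster to Pgr there were 9 other tested genes, of which 5 were higher in cKO (Tmem123, Birc2, Birc3, Yap1 and Cfap300, at 0.14 to 0.55 on the log2 scale), 2 were lower (Trpc6 at -1.30 and Gm32014 at -0.41) and 2, Cep126 and Pgr itself, were not called. Over the whole table, 21.9% of tested genes were higher and 21.8% lower. All 9 cluster genes and no other member lay within 10 Mb of Pgr, and no member lay within 10 Mb of Pbrm1. Mmp14, which was lower in cKO, shares chromosome 14 with Pbrm1 and lay 23.3 Mb from it.

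**Figure D4:**
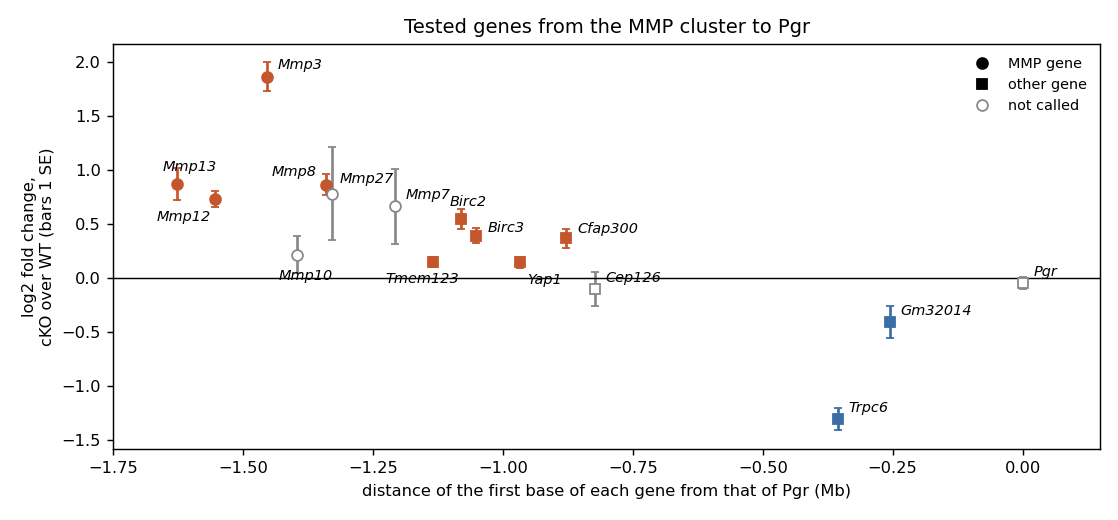
Log2 fold change between Pbrm1 cKO and WT (vertical axis; bars 1 SE) of the 16 tested genes from the MMP cluster to Pgr, against the distance of each gene from Pgr in Mb. Circles are MMP genes, squares other genes and open symbols genes that were not called; Mmp3 (1.86) is the highest and Trpc6 (-1.30) the lowest.

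Promoter sequence was compared within the cluster because 4 of its members were called and 3 were not. The 100 bases before the RefSeq start are shown for the 4 called genes and for 2 genes that were not called (build GRCm38.p6, plus strand, 5′ to 3′), and capitals mark matches to TGANTCA, the AP-1 consensus, which reads alike on both strands. For Mmp12, which has 2 RefSeq starts, the second is shown. It lies inside the gene as the deposited table annotates it and had the match that the first lacked. Mmp7 also has 2 starts, and the first is shown, which had the match that the second lacked. The windows are Mmp3 at chr9:7445722-7445821, Mmp13 at chr9:7272414-7272513, Mmp12 at chr9:7347274-7347373, Mmp8 at chr9:7558329-7558428, Mmp10 at chr9:7502242-7502341 and Mmp7 at chr9:7691990-7692089.
Mmp3 (higher): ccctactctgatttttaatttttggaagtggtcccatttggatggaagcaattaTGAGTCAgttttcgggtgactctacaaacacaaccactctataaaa
Mmp13 (higher): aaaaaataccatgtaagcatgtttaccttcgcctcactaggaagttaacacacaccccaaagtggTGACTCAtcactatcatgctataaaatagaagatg
Mmp12 (higher): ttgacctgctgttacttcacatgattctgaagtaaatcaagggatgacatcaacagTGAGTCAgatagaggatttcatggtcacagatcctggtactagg
Mmp8 (higher): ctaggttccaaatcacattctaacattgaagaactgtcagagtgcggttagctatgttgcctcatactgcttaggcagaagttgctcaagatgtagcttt
Mmp10 (not called): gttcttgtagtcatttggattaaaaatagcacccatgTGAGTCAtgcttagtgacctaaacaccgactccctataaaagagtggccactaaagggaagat
Mmp7 (not called): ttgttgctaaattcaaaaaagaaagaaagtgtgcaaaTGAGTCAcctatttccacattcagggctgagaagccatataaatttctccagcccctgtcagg

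Counting the base before the start as -1, the match began at -46 in Mmp3, -35 in Mmp13, -44 in Mmp12, -63 in Mmp10 and -63 in Mmp7. Over the whole RefSeq window, 250 bases before to 50 after the start, 7 of the 9 cluster genes had a match at any start. Counted by single promoter and not by gene, 7.81% of all 32851 promoters had a match. Of the 26 other members with a promoter entry, 0 had one. Within the cluster the match did not follow the calls in every gene, as Mmp10 and Mmp7 had it and were not called, and Mmp8 lacked it and rose. Mmp3, Mmp13 and, at its second start, Mmp12 had it and rose. Mmp27, whose sequence is not shown, lacked it and was not called. The letters TATAAA, as in the TATA element, were searched on the gene's strand over the whole window. They were found at any start in 7 of the 9 cluster genes and 3 of the 26 others. They occurred in 8.32% of all promoters counted singly. Their place varied: the first match began at -123 in Mmp7, -58 in Mmp20, -49 in Mmp1b, -29 in Mmp10, -16 in Mmp13 and -7 in Mmp3. In Mmp12 the match lay after the second start. A match of letters is a description and says nothing on binding. RefSeq gave a promoter for 35 of the 50 members.

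The gelatinases, which degrade denatured collagen and basement membrane, moved apart. Mmp2 (chromosome 8, 92827291 to 92853420, plus strand) gave 185, 194 and 189 CPM across WT and 240.0, 293 and 247 CPM across cKO, with all cKO libraries above WT and replicate 2 the highest (log2 fold change 0.46 with SE 0.065, edgeR adjusted p = 8.38e-05). Mmp9 was at 32.8, 31.8 and 30.7 CPM across WT and 22.0, 31.9 and 22.5 CPM across cKO (log2 fold change -0.31 with SE 0.11, edgeR adjusted p = 0.0385). Here cKO replicate 2 lay within the WT range and the other cKO libraries below it. The call of Mmp9 was lost in the fits without any 1 of WT replicates 1, 2 and 3 or cKO replicates 1 and 3, with adjusted p-values of 0.0714 to 0.179, and without cKO replicate 2 the log2 fold change was -0.51.

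Mmp2 is activated at the cell surface by the membrane-type protease Mmp14, with Timp2 as the bridge between them. These genes did not move together. Mmp14 (chromosome 14, 54431612 to 54445364, plus strand) gave 521, 509.9 and 489 CPM across WT and 352, 414 and 342 CPM across cKO, with no cKO library above a WT library (log2 fold change -0.46 with SE 0.063, edgeR adjusted p = 6.45e-05). Timp2 (chromosome 11, 118301069 to 118355740, minus strand) gave 144, 147 and 149 CPM across WT and 203, 174 and 196 CPM across cKO, all higher in cKO (log2 fold change 0.38 with SE 0.055, edgeR adjusted p = 8.91e-05). In RPKM, Mmp14 stood above Mmp2 in every WT library and below it in every cKO library, with means of 85.0 against 56.2 in WT and 62.0 against 77.1 in cKO. The small gene Cep295nl, which overlaps Timp2 on the same strand, averaged 0.668 CPM in WT and 1.64 CPM in cKO. It was itself higher in cKO (log2 fold change 1.31, edgeR adjusted p = 0.00307). Any reads that fitted both genes were left out by default.

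Other membrane-type MMPs were expressed at lower levels. Mmp23, which is shed from the membrane, was at 17.4, 16.8 and 17.1 CPM across WT and 30.4, 26.2 and 35.3 CPM across cKO, without overlap (log2 fold change 0.84 with SE 0.098, edgeR adjusted p = 1.43e-05). Mmp15, Mmp16, Mmp17 and Mmp24 were not called, with mean levels of 0.312 to 2.23 RPKM in WT and 0.304 to 2.74 RPKM in cKO. Mmp17, which is anchored by a lipid, had a log2 fold change of 0.29 (SE 0.12, edgeR adjusted p = 0.0561) and passed the threshold in 5 of 14 alternatives, among them the fits without WT replicate 1 (adjusted p = 0.0439) and without cKO replicate 2 (log2 fold change 0.42, adjusted p = 0.00149). Mmp15 had a log2 fold change of -0.33 (SE 0.14, edgeR adjusted p = 0.0683) with the cKO libraries below the WT libraries, and it passed without cKO replicate 2 (0.0298).

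Mmp11 and Mmp19 belong to neither group. Mmp11, or stromelysin 3, is activated inside the cell by furin and is known from stroma during remodeling; it was at 32.4, 34.3 and 36.0 CPM across WT and 28.1, 25.9 and 27.5 CPM across cKO, all lower in cKO (log2 fold change -0.33 with SE 0.067, edgeR adjusted p = 0.00117). Mmp19, a widely expressed MMP, had the highest mean RPKM of the MMPs in both groups, though in cKO replicate 2 it was at 75.7 RPKM and Mmp2 at 87.0 RPKM. As CPM, Mmp19 was at 319, 329 and 326 CPM across WT and 323, 268 and 301 CPM across cKO, with cKO replicate 1 inside the WT range (log2 fold change -0.13 with SE 0.059, edgeR adjusted p = 0.0954). Mmp19 was not called, but was so without cKO replicate 1 (adjusted p = 0.0233) and with no filter on low counts (0.0239). Mmp19, Mmp14 and Mmp2 together made up most MMP transcripts, at 31.5%, 29.1% and 19.3% of the summed RPKM of MMPs in WT and 26.0%, 19.2% and 23.8% in cKO.

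**Figure D5:**
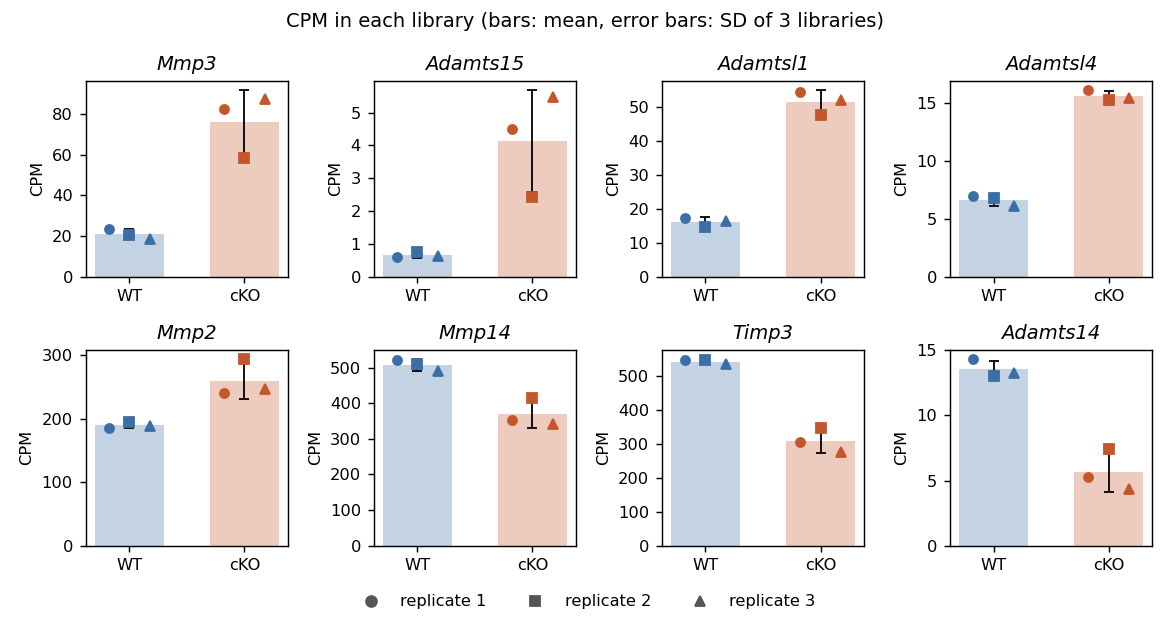
CPM (vertical axes, from 0) of 8 members in each library; bars are means and error bars SD of 3 libraries, and the symbol gives the replicate number. In Mmp3, Adamts15, Mmp14, Timp3 and Adamts14 the square of cKO replicate 2 lies nearer to WT than the other cKO libraries, and in Mmp2 it lies farthest.

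Of 6 tested proteoglycan-cleaving ADAMTS proteases, which cut versican and aggrecan, 4 rose and 1 fell in cKO. Of all tested genes, 21.9% were higher and 21.8% lower. The summed level of this group overlapped, at 339 to 342 CPM in WT and 281 to 373 CPM in cKO. Adamts15 (chromosome 9, 30899155 to 30922452, minus strand) had the largest fold change of all members, from a low base. Its counts were 10, 14 and 11 in WT and 80, 46 and 85 in cKO, or 0.591, 0.749 and 0.644 CPM across WT and 4.50, 2.44 and 5.47 CPM across cKO. No library overlapped, and the cKO mean was 6.26-fold that of WT (log2 fold change 2.61 with SE 0.33, edgeR adjusted p = 2.59e-05). In spite of that change its level of 0.399 RPKM in cKO was below that of most members.

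Adamts4, the first aggrecanase to be described, was at 14.7, 16.3 and 11.8 CPM across WT and 28.1, 26.8 and 27.7 CPM across cKO (log2 fold change 0.94 with SE 0.098, edgeR adjusted p = 5.03e-06). Adamts5, an aggrecanase and versicanase, was at 6.74, 7.43 and 6.32 CPM across WT and 12.9, 8.75 and 9.72 CPM across cKO (log2 fold change 0.61 with SE 0.14, edgeR adjusted p = 0.00366), and Adamts9, a versicanase with roles in vessels and cilia, at 30.5, 31.8 and 28.9 CPM across WT and 55.7, 39.4 and 57.8 CPM across cKO (log2 fold change 0.74 with SE 0.11, edgeR adjusted p = 0.000151). In all 3 genes the cKO libraries lay above the WT libraries. Adamts8 averaged 0.701 CPM in WT and 0.832 CPM in cKO and was not called (log2 fold change 0.26 with SE 0.33, edgeR adjusted p = 0.558).

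Adamts1, which is induced by progesterone signaling in the ovulating follicle, was the most abundant ADAMTS gene. It was at 285, 284 and 293 CPM across WT and 264, 202 and 271 CPM across cKO (log2 fold change -0.23 with SE 0.083, edgeR adjusted p = 0.0410). All cKO libraries were below WT, and replicate 2 was the lowest by a wide margin. Without that library the log2 fold change was -0.098 and the adjusted p-value 0.0594. The call was also lost without WT replicate 1, 2 or 3 (0.0778 to 0.120) and with scaling by library size alone (0.0640). Adamts1 held 51.8% of the summed RPKM of ADAMTS and ADAMTS-like genes in WT and 40.4% in cKO. The sum over the proteoglycan-cleaving genes was 59.8 to 60.5 RPKM in WT and 47.6 to 62.4 RPKM in cKO, with cKO replicate 2 below the WT range and the other cKO libraries above it. Adamts1 and Adamts5 are neighbours, 53.1 kb apart on chromosome 16, with opposite calls. Versican itself, the main substrate expressed here, was at 497 CPM in the WT mean and 465 CPM in that of cKO and was not called (log2 fold change -0.095 with SE 0.046, edgeR adjusted p = 0.114). Its cKO libraries nonetheless lay below its WT libraries, at 440 to 489 CPM against 491 to 502 CPM.

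The procollagen N-proteinases, which remove the amino-terminal propeptide of fibrillar procollagens, moved apart. Adamts2, which acts on procollagens I to III, was at 154, 144 and 139 CPM across WT and 226, 187 and 218 CPM across cKO (log2 fold change 0.53 with SE 0.065, edgeR adjusted p = 2.34e-05), so all cKO libraries were higher. Adamts14 (chromosome 10, 61197112 to 61273438, minus strand), its close relative, was at 14.3, 13.05 and 13.3 CPM across WT and 5.29, 7.43 and 4.37 CPM across cKO, so all were lower, at 42.2% of the WT mean (log2 fold change -1.23 with SE 0.15, edgeR adjusted p = 1.73e-05). Adamts3, which acts on procollagen II and the lymphatic growth factor VEGF-C, averaged 15.5 and 16.8 CPM and was not called (log2 fold change 0.12 with SE 0.088, edgeR adjusted p = 0.304). Adamts2 was the most abundant of them, and the sum over the 3 genes was higher in cKO, at 24.4 to 28.5 RPKM against 20.4 to 22.0 RPKM in WT.

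Among the remaining ADAMTS proteases, 3 rose slightly and 1 fell, where 21.9% of all tested genes were higher and 21.8% lower. Adamts12, which cuts cartilage oligomeric matrix protein, was at 79.3, 75.8 and 80.4 CPM across WT and 94.7, 94.2 and 91.0 CPM across cKO (log2 fold change 0.25 with SE 0.047, edgeR adjusted p = 0.000807), and Adamts10, which binds fibrillin, at 24.0, 20.9 and 19.7 CPM across WT and 26.7, 25.8 and 28.7 CPM across cKO (log2 fold change 0.33 with SE 0.083, edgeR adjusted p = 0.00573). Adamts7, a relative of Adamts12, was at 6.03, 6.52 and 5.15 CPM across WT and 9.0, 6.63 and 8.75 CPM across cKO (log2 fold change 0.45 with SE 0.14, edgeR adjusted p = 0.0201). For these 3 the groups did not overlap, though the call of Adamts7 was lost without WT replicate 3 (adjusted p = 0.0910), cKO replicate 1 (0.0931) or cKO replicate 3 (0.0614). Adamts19, known from heart valves and the developing ovary, was at 2.72, 3.26 and 3.28 CPM across WT and 2.14, 1.70 and 1.61 CPM across cKO, all lower in cKO (log2 fold change -0.76 with SE 0.19, edgeR adjusted p = 0.00572). Adamts6, which acts on microfibrils, was at 40.0, 41.6 and 39.4 CPM across WT and 37.5, 42.4 and 38.5 CPM across cKO, a difference within the spread of the libraries (log2 fold change -0.030 with SE 0.063, edgeR adjusted p = 0.733).

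The ADAMTS-like genes, whose products bind microfibrils, included 2 of the largest increases. Adamtsl1 (chromosome 4, 85514172 to 86428385, plus strand) gave 17.4, 14.5 and 16.4 CPM across WT and 54.5, 47.6 and 52.2 CPM across cKO, 3.19-fold higher in cKO by the means (log2 fold change 1.68 with SE 0.079, edgeR adjusted p = 3.35e-09). Adamtsl4 (chromosome 3, 95676201 to 95687917, minus strand), which is needed for the fibers that hold the lens, was at 6.97, 6.79 and 6.09 CPM across WT and 16.1, 15.3 and 15.4 CPM across cKO, or 2.36-fold higher (log2 fold change 1.24 with SE 0.097, edgeR adjusted p = 3.68e-07). In both genes the cKO libraries lay close together and far above WT. Adamtsl3 was at 1.18, 0.642 and 0.820 CPM across WT and 1.18, 1.80 and 2.12 CPM across cKO (log2 fold change 0.95 with SE 0.31, edgeR adjusted p = 0.0226), with cKO replicate 1 level with WT replicate 1, and its call was lost in DESeq2 (adjusted p = 0.0550) and without WT replicate 2 (0.104), WT replicate 3 (0.0722) or cKO replicate 3 (0.0869). Adamtsl2, which binds a carrier of TGF-β, averaged 3.45 and 2.80 CPM (log2 fold change -0.31 with SE 0.18, edgeR adjusted p = 0.196) and Adamtsl5 averaged 9.68 and 10.4 CPM (log2 fold change 0.10 with SE 0.14, edgeR adjusted p = 0.583), and neither was called. Summed over the 5 genes, the level was 4.92 to 5.86 RPKM in WT and 10.4 to 10.6 RPKM in cKO.

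Of the inhibitors, all 3 measured TIMPs were called, where 43.7% of all tested genes were. Timp1 (chromosome X, 20870166 to 20874735, plus strand), a soluble inhibitor of most MMPs, was at 982, 986 and 1015 CPM across WT and 1086, 1097 and 1141 CPM across cKO, with all cKO libraries slightly higher (log2 fold change 0.16 with SE 0.042, edgeR adjusted p = 0.00870). Its mean level was 1120 RPKM in WT and 1248 RPKM in cKO. Timp2, given above, rose as well. Timp3 (chromosome 10, 86300372 to 86349506, plus strand), which stays bound to the matrix and also inhibits ADAMTS aggrecanases and the membrane protease Adam17, was at 548, 547 and 536 CPM across WT and 306, 348 and 276 CPM across cKO. All cKO libraries were well below WT, at 57.0% of its mean, with replicate 2 the nearest to it (log2 fold change -0.81 with SE 0.066, edgeR adjusted p = 5.45e-07). Timp4 had 3 to 10 counts in a library and was not measured.

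The 10 members that were not measured were Adamts13, Adamts16, Adamts17, Adamts18, Adamts20, Mmp1b, Mmp20, Mmp21, Mmp25 and Timp4, with 0 to 14 counts in a library. Mmp20, the protease of tooth enamel, and Mmp21 had 0 counts in all 6 libraries, which allows up to 0.159 to 0.193 CPM by counting error. Mmp28, or epilysin, was measured but fell below the expression filter of the test, with means of 0.492 and 0.626 CPM in WT and cKO.

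Genes that activate, inhibit or accompany these proteases were examined as a list of 47, of which 39 were tested. In cKO 17 were higher and 9 lower (26 of 39 called), where 21.9% of all tested genes were higher, 21.8% lower and 43.7% called in either direction. The median log2 fold change over the 39 was -0.0069. Plasminogen activation, which yields the plasmin that can start MMP activation, was covered by 5 tested genes of the list, all of them called. Plat, the tissue-type activator, rose from 195, 191 and 194 CPM to 283, 275 and 307 CPM (log2 fold change 0.57 with SE 0.048, edgeR adjusted p = 7.00e-07). The urokinase-type activator Plau (log2 fold change -0.18 with SE 0.054, edgeR adjusted p = 0.0144), its receptor Plaur (log2 fold change -0.57 with SE 0.061, edgeR adjusted p = 6.88e-06) and the inhibitors Serpine2 (log2 fold change -0.55 with SE 0.053, edgeR adjusted p = 2.36e-06) and Serpinb2 (log2 fold change -0.38 with SE 0.082, edgeR adjusted p = 0.00207) fell. These were 1 increase and 4 decreases. Plg itself, the precursor, was at or below the floor in every library.

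The procollagen C-proteinases also moved apart. Bmp1 was at 153, 148 and 139.6 CPM across WT and 197, 184 and 192 CPM across cKO (log2 fold change 0.38 with SE 0.049, edgeR adjusted p = 3.22e-05), and Tll1, its close relative, at 37.4, 35.6 and 37.6 CPM across WT and 7.59, 10.9 and 7.98 CPM across cKO, the largest change of the list (log2 fold change -2.05 with SE 0.11, edgeR adjusted p = 8.67e-09). Of 7 membrane ADAM proteases, 4 rose and 2 fell, with the largest change in Adam8, a protease of leukocytes (log2 fold change 0.81 with SE 0.047, edgeR adjusted p = 2.52e-08); Adam17, the shedding enzyme that Timp3 inhibits, rose as well (log2 fold change 0.26 with SE 0.045, edgeR adjusted p = 0.000415). Reck, a membrane-anchored inhibitor of MMPs, rose (log2 fold change 0.63 with SE 0.078, edgeR adjusted p = 2.40e-05) and Tfpi2, a secreted inhibitor of plasmin, fell (log2 fold change -0.66 with SE 0.16, edgeR adjusted p = 0.00478). Of 5 cathepsins, which are lysosomal proteases abundant in macrophages, 4 rose, with Ctsl at 0.86 and Ctsb at 0.55. The part of macrophages in these changes was not tested. Beside the counts for ADAM proteases and cathepsins, 21.9% of all tested genes were higher in cKO and 21.8% lower. Among other matrix peptidases Htra3 (0.78) and Fap (0.86) rose and Dpp4 fell by 0.51 on the log2 scale, a call lost without WT replicate 3 (adjusted p = 0.0578). Of 4 proprotein convertases, which cleave MMP precursors inside the cell, Pcsk5 alone was called, as higher (0.36), while Furin averaged 195 and 178 CPM (log2 fold change -0.13 with SE 0.080, edgeR adjusted p = 0.217).

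Several marker lists differed between the groups along with these genes, in a table where 21.9% of all tested genes were higher in cKO and 21.8% lower. Smooth muscle markers were higher in 5 of 8 cases, epithelial markers in 6 of 9 (summed level 1040.1 to 1134 CPM in WT and 1240.4 to 1385 CPM in cKO), and fibroblast markers in 4 of 7 with 1 lower (5017 to 5739 CPM and 6928 to 7431 CPM). Mesothelial markers were lower in 3 of 5 (199 to 209 CPM and 152 to 153 CPM), and of 7 endothelial markers 1 was higher and 1 lower (345 to 365 CPM and 281 to 288 CPM). That endothelial sum rested on Kdr, at means of 182 and 99.4 CPM: without it the others summed to 171 to 179 CPM in WT and 176 to 193 CPM in cKO, which overlapped. Leaving out any other single marker turned no list's direction. The granulosa marker Inha was lower, and the other 3 of that list were not tested. Genes that respond to dissociation and serum were higher in 9 of 15 and lower in 2 (summed level 809.8 to 919 CPM in WT and 1023 to 1145 CPM in cKO). The part of any of these lists in the protease results was not tested.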

How the data were processed

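RNA-seq was measured in 3 WT and 3 Pbrm1 cKO libraries of cells from digested oviducts, made with random and poly(T) priming, strand selection and depletion of targeted transcripts. The authors deposited whole-number counts per gene. Per the file headers, reads over exons were counted with featureCounts 1.6.4 in reverse-stranded mode on the GENCODE M18 annotation; per the labels, the submitters' processing notes name cutadapt, HISAT2 and GRCm38.p5. Reads with more than 1 possible place or gene were left out by default, so similar genes lose reads. The gene length used for RPKM is the exon length that the authors deposited (unit: base pairs). Symbols and biotypes came from GENCODE M21 of the same build for 99.9% of the genes; 1 further gene with an Mmp symbol, Mmp1a, is not protein-coding there and was left out.

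Groups were compared in R 4.3.3 by the quasi-likelihood F-test of edgeR 4.0.16, two-sided, with TMM scaling and filterByExpr by group, over all genes at once, with Benjamini-Hochberg adjustment over 15376 genes and a threshold of 0.05. "Called" means past that threshold. DESeq2 1.42.0, limma-voom (limma 3.58.1), other scalings and filters, a stricter threshold of 0.01, a block for the replicate number and the omission of each library in turn were alternatives. The fit was tested on simulated counts. SE values are the size of the log2 fold change over the square root of F. Intervals and floors cover counting error only, since reads carried no molecular identifiers. Every pair of libraries of a group differed by more than sampling noise (chi-square per gene 1.31 to 1.60 in genes with few counts). Promoter sequences are those of RefSeq.

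The genes, the pathway list and the marker lists were chosen with earlier results of these data known. All members were to be accounted for, with values in every library for those called or at 5 RPKM or more, and of the pathway list up to 12 called genes with the largest change were to be named; Plau, Serpinb2, Bmp1, Adam17, Pcsk5, Furin, Plg, Vcan and the genes between the cluster and Pgr were named beyond that rule after their values were seen, as were the macrophage markers and Kdr; the sums of marker lists without each gene in turn were also added after seeing the data. A gene of the pathway list is not reported here and is left out of its counts.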

Additional observations from a re-analysis of the deposited data

How the results depend on the processing

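Across 14 alternatives at the same threshold, 22 of the 26 called members stayed past it in every one; the other 4 were Adamts1, Adamts7, Adamtsl3 and Mmp9. Leaving out 1 library at a time gave 22 to 28 called members (17 to 21 higher, 5 to 7 lower), 24 to 26 called genes of the pathway list, 5532 to 7054 called genes in the whole table, a median log2 fold change of the members of 0.27 to 0.37, and -2.02 to -1.89 for Pbrm1. DESeq2 called 25 members, limma-voom 26, and a threshold of 0.01 left 22. The estimate of Adamts6 ranged from -0.082 to 0.0073, and that of Adamtsl5 from -0.041 to 0.21, when 1 library was left out; the sign turned without cKO replicate 1 and without WT replicate 3, and neither gene was called in any fit. Replicate numbers did not pair the libraries (correlations of same-numbered deviations -0.024, 0.035 and 0.093); with the replicate block 6908 genes and 27 members were called; 6617 and 26 were also called without the block, and the added member was Mmp17. No scaling moved the median of all genes by more than 0.017. With 3 libraries a group, members with few counts, such as Mmp7, Mmp27 and Adamts8, had SEs of 0.33 to 0.43 on the log2 scale, and changes of that size were not detectable in them. Counts over all exons do not tell isoforms apart, and transcript levels do not give the activity of proteases, which are made as precursors.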

Other observations

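Replicate 2 of Pbrm1 cKO was the cKO library nearest to the WT mean in 19 of the 26 called members, replicate 1 in 5 and replicate 3 in 2; among all called genes replicate 2 was nearest in 56.7%. Mmp2, Mmp11 and Adamts1 were exceptions in which it lay farthest from WT.

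Adamts15 and Adamts8 are neighbours, 20.1 kb apart on chromosome 9, and only Adamts15 was called; the difference between the 2 responses was not tested. The distance of Adamts15 from Pgr on the same chromosome was 21.9 Mb. Another gene overlapped 21 members on the opposite strand and 4 on the same strand. Timp1, Timp3 and Timp4 lie opposite Syn1, Syn3 and Syn2, and those synapsin genes averaged 0.235 to 0.692 CPM in either group. Mmp11 lies opposite Chchd10, which also fell in cKO (log2 fold change -0.80, edgeR adjusted p = 5.59e-05); counting used strand.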
